A study of Mus musculus and Homo sapiens with 12 samples.

Results

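The elements described here are the human ERV1 repeats that are left when the HERV9/LTR12 and HERVH/LTR7 groups are set aside. They were chosen by annotation alone: every row of the human repeat table whose family is ERV1, except subfamilies whose name begins with LTR12 or HERV9 and except HERVH-int, LTR7, LTR7A, LTR7B, LTR7C and LTR7Y. This gave 116575 of the 3919868 annotated elements, in 284 subfamilies, and 7982 of them (6.85%) had counts in at least 1 library. For comparison, HERV9/LTR12 held 5938 elements, of which 1896 had counts, and HERVH/LTR7 held 5218, of which 1778 had counts.

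The study precipitated chromatin-associated RNA (caRNA, the RNA left with the chromatin pellet when cells are fractionated) with an antibody against 5-methylcytosine (m5C) and sequenced it. TET2 is a dioxygenase that oxidises methylated cytosine, and the comparison asks which caRNAs differ in the precipitate when it is lost. The cells were K-562, a human chronic myeloid leukaemia line grown in RPMI-1640 with serum, as 3 wild-type (WT) and 3 TET2 knockout (KO) libraries. The KO line is TET2-/- and came from another laboratory, and the sources used here do not say whether it is 1 clone. The study obtained WT K-562 cells both from that laboratory and from a cell collection. Which of these gave the WT libraries is not stated in the sources used here. A label field of the KO libraries spells the line K563, while their titles give K562. The counts are those of the precipitate, with no input or spike-in column, so RNA abundance and m5C enrichment cannot be told apart in a difference between KO and WT, and every value stands relative to the rest of the repeats. The tables list repeats only, so neither loss of TET2 nor markers of the cell type could be checked in them: the 5 elements inside TET2 held 3.67, 3.2 and 0 counts in WT, against 3.4, 0.08 and 2 in KO.

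ERV1 elements are the remains of gammaretrovirus-like proviruses that entered the germ line of ancestral mammals and primates. An intact provirus has an internal region with gag, pol and env genes (names ending in -int) between long terminal repeats (LTRs) that carry its promoter and polyadenylation signal, and most copies have lost the internal region by recombination and persist as solitary LTRs. Some LTRs act as promoters or enhancers of host genes, and a few env genes, such as the syncytins of the placenta, are still translated.

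Library totals over the DNA, LINE, LTR and SINE classes were 498145 to 649905 counts in WT and 715023 to 827341 in KO, so depth followed genotype. Member elements held 15153 to 23821 counts in WT and 22136 to 36403 in KO, and 1619 to 2512 of them had counts in a library. Correlations of log-scaled counts across the member subfamilies, which share libraries and depth, were 0.375 to 0.566 within groups and 0.293 to 0.535 between them. A p-value here measures the spread between the 3 libraries of a group, which may be technical. Many members have near-identical copies among which reads can be split, and the way the deposited counts treat such reads is not stated, so the values of single copies are uncertain.

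The sequences of 6 elements are shown because several of the subfamily values below rest on them or on copies like them. All are hg38, in the 5' to 3' direction of the annotated strand, with cytosines, the base that the antibody reads in its methylated form, in capitals. The strand from which the RNA came is not known here, so the guanines can equally mark cytosines of an opposite transcript. The first line is the member with the highest count, chr21:8229744-8229975 on the minus strand, and the next is its neighbour chr21:8229357-8229590, 153 bp away on the same strand. Both are aligned to the same stretch of the HERVIP10FH-int consensus, positions 779 to 1013 and 779 to 1014, and are 77.2% identical.
HERVIP10FH-int, 232 bases: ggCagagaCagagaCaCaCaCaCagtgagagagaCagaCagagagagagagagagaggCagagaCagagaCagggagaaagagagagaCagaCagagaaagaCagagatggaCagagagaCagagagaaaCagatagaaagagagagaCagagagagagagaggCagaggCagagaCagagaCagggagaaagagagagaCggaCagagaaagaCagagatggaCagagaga
HERVIP10FH-int neighbour, 234 bases: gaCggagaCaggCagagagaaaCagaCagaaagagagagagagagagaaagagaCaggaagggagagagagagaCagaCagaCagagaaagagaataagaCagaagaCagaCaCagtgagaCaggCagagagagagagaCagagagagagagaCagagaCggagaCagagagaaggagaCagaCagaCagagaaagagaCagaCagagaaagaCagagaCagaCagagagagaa
A or G made up 201 of the 232 bases (86.6%) and 205 of the 234 (87.6%), and each held 27 cytosines. They held 1 and 2 CpG dinucleotides. The next line is the first 300 of 757 bases of the highest LTR60B copy, chr13:114351821-114352577 on the plus strand, which lies 11751 bp from the end of its chromosome.
LTR60B, bases 1 to 300: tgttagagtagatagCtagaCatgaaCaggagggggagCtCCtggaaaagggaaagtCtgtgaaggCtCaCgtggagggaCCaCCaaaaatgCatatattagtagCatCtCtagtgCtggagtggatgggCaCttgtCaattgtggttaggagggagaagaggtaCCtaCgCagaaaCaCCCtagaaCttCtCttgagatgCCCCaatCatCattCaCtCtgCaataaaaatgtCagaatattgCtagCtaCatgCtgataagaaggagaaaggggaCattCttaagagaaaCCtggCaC
The last 3 are short fragments that carried much of the count of their subfamily: MER39B at chr21:8230776-8230919, MER67B at chr21:34410942-34411019 in an intron of SMIM11, and LTR9 at chrX:2323864-2323902 in an intron of DHRSX, all on the plus strand. The MER67B and LTR9 fragments each had 2 identical copies with counts, the LTR9 pair lying at the same place in the region that X and Y share.
MER39B, 144 bases: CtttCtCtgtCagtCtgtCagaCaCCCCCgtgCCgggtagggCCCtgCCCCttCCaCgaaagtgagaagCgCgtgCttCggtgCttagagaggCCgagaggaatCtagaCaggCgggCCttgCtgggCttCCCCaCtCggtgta
MER67B, 78 bases: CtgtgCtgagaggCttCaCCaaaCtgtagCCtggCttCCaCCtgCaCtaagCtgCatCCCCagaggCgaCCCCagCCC
LTR9, 39 bases: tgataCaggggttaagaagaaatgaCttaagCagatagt

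The members' share of all counts did not separate the groups. It was 3.67%, 3.28% and 2.71% in WT and 3.30%, 3.10% and 4.40% in KO (3.22% ± 0.483 against 3.60% ± 0.701, mean ± SD, n = 3 per group), a log2 ratio of 0.16. KO replicate 3 was the highest, and without it the log2 ratio was −0.01. FordPrefect, a DNA transposon subfamily, held a larger part of the KO counts, and without it the members held 3.95%, 3.62% and 3.00% in WT and 4.29%, 4.05% and 5.74% in KO, all KO libraries above all WT libraries, with a log2 ratio of 0.41. HERVH/LTR7 had the same log2 ratios, 0.16 with all repeats counted and 0.41 without FordPrefect, and HERV9/LTR12 had −0.75 and −0.51.

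**Figure D1:**
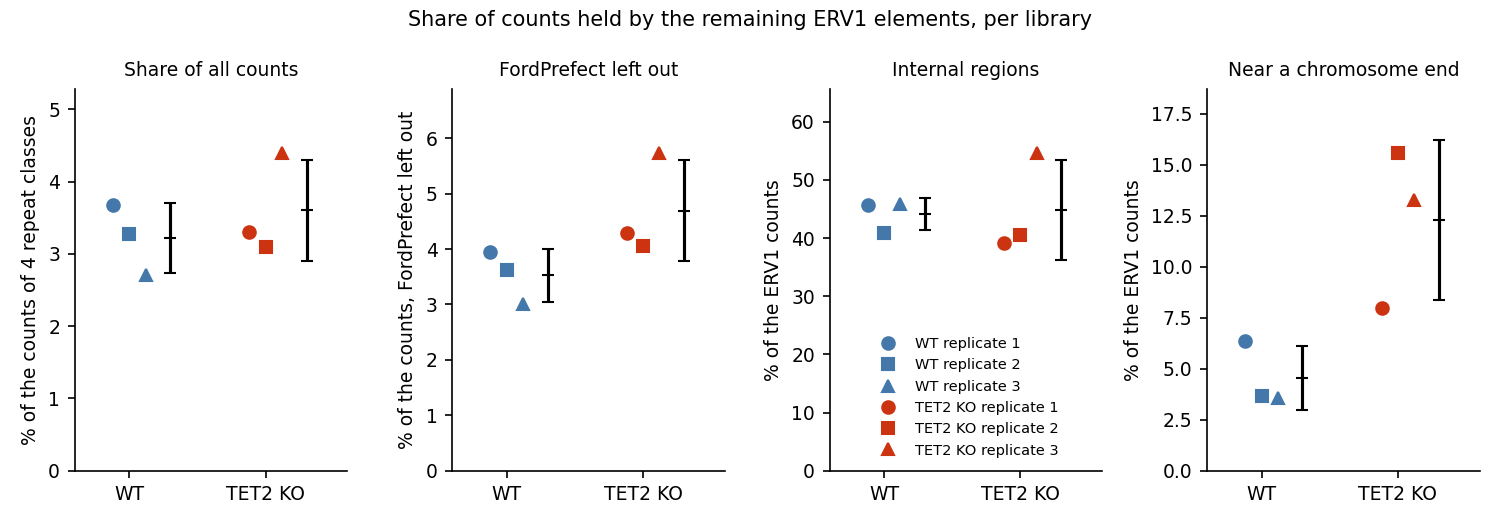
Percent of counts (vertical axes, from 0) held by the remaining ERV1 elements, with all repeats counted and with FordPrefect left out, by their internal regions and by members within 100 kb of a chromosome end, with 1 symbol per library and black bars for mean ± SD (n = 3). The groups overlap for all counts, where KO replicate 3 is highest at 4.40%, and do not overlap with FordPrefect left out or near chromosome ends.

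Internal regions held nearly equal parts of the members' counts in both groups: 45.7%, 40.9% and 45.8% in WT and 39.1%, 40.6% and 54.7% in KO (44.1% ± 2.81 against 44.8% ± 8.61). Without KO replicate 3 the log2 ratio was −0.15 in place of 0.02, and both other KO libraries were below every WT library. Counts were found on 16.1% of 13472 internal elements and on 5.64% of 103103 LTR elements. The internal elements with counts were long, with a median of 5150 bp against 991 bp for all, and per kilobase of annotated sequence internal regions held 2.09 counts and LTRs 1.24 over the 6 libraries. HERVIP10FH-int alone held 17.2% of the members' counts, of 45.4% for all internal regions, and 63.9% of it lay in 3 identical short copies. The density without them was not computed.

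The counts were concentrated on few elements and on few places. The 10 highest elements held 23.6% of the members' counts, the 100 highest 59.4%, and the 10 highest subfamilies 47.5%. Of the members with counts, 70.1% had them in 1 library only and 206 (2.58%) in all 6. Of the 406 members with at least 50 counts, 238 (58.6%) drew 90% or more of them from 1 library, against 48.1% of 11745 such elements among all other repeats, 84.6% of 39 in HERV9/LTR12 and 63.3% of 90 in HERVH/LTR7. These 238 fell in every library, with 30, 18 and 33 in WT and 59, 46 and 52 in KO.

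Alternate contigs of hg38 held 15.8% ± 1.55 of the members' counts in WT and 14.8% ± 2.45 in KO, although 4.01% of the elements lie there. The first 12 Mb of chromosome 21 held 22.8% ± 4.15 and 21.1% ± 0.473, with 0.272% of the elements. Elements within 100 kb of a chromosome end, 0.267% of all, held 6.34%, 3.68% and 3.57% in WT and 7.98%, 15.6% and 13.3% in KO, so every KO library was above every WT library. This difference lay with LTR60B: without that subfamily the chromosome-end share was 3.13%, 0.0296% and 3.57% in WT and 0.748%, 2.02% and 6.31% in KO, and the groups overlapped. By gene annotation, introns held 22.4% ± 1.69 of the counts in WT and 25.6% ± 8.05 in KO, exons 14.7% ± 2.47 and 13.6% ± 3.07, and intergenic sequence 39.5% ± 1.34 and 39.9% ± 3.02.

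Members with at least 50 counts were somewhat richer in G and C than members without counts, with a median GC content of 44.3% (n = 401 of at least 100 bp) against 42.8% (n = 98922). They held a median of 1.05 CpG per 100 bp against 0.737 and were longer, at 955 against 527 bp. For internal elements the medians were 43.1% and 39.1% GC, and for LTRs 45.1% and 43.1%. The quartiles, 40.8% to 48.3% and 39.3% to 46.2%, overlapped widely.

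No member subfamily passed the test. Of 573 repeat subfamilies tested with edgeR, 6 had an adjusted p under 0.05 (1.05%), and of the 107 member subfamilies among them 0 did, with 2 of all 573 higher in KO (0.349%) and 4 lower (0.698%). At an unadjusted p under 0.05 there were 19 members (17.8%) against 13.8% of all subfamilies, and the DESeq2 Wald test called 14 members (13.1%) against 10.6% of all. KO lay above WT in all libraries for 12 members (11.2%, against 10.3% of all subfamilies) and below it for 4 (3.74%, against 6.63%), together 15.0% of the members and 16.9% of all. The median log2 change was 0.21 for the members and 0.03 for all subfamilies tested, and 61 of 107 members (57.0%) were above 0 against 50.8%. All 12 subfamilies with higher KO libraries were among the 68 LTRs tested and 0 among the 39 internal regions, whereas the internal regions had the higher median log2 change (0.28 against 0.14) and the larger share above 0 (61.5% against 54.4%), and neither difference was tested. The other 177 member subfamilies had too few counts to be tested.

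**Figure D2:**
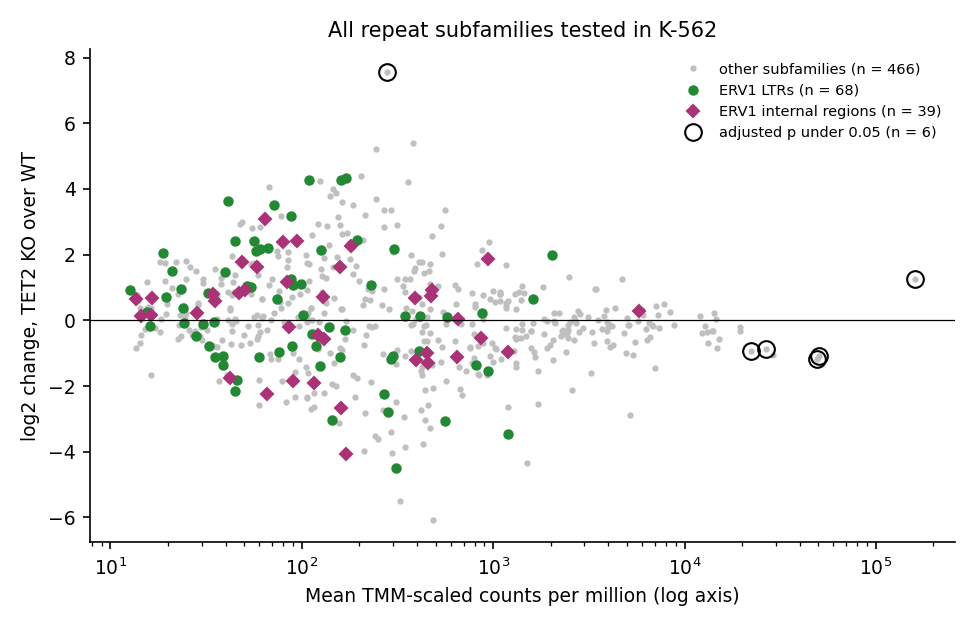
Log2 change of KO over WT (vertical axis) against mean CPM (counts scaled by TMM-adjusted library size, log axis) for the 573 repeat subfamilies tested, with the 68 LTRs and 39 internal regions of the remaining ERV1 in colour and the 6 subfamilies with an adjusted p under 0.05 circled. None of the circled points is a member, and the members spread to both sides of 0.

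The 12 members with every KO library above WT were mostly low in WT, and in several of them much of the KO count came from loci counted in 1 library. The filter on low counts can be met by the libraries of 1 group alone. MER67B, MER57B1, LTR1B, MER72 and LTR28B met it through the KO libraries alone. Their low WT level and their place among the 12 thus partly follow from the filter. In MER4A1_, of the WT libraries only replicate 2, with 13.1 counts, also reached the level of the filter. MER67B, an LTR, had the smallest p, with 4.51, 4.16 and 2.05 CPM in WT, against 18.5, 69.9 and 147 in KO, with a log2 change of 3.64 ± 0.816 (SE, adjusted p = 0.0897). The MER67B fragment printed above and its identical copy at chr21:7780930-7781007 held 116 of its counts in KO replicate 3 and 0 in every other library. MER57B1, another LTR, had 6.01, 4.16 and 14.3 CPM in WT, against 215, 30.9 and 384 in KO, with a log2 change of 4.26 ± 1.15 (SE, adjusted p = 0.152). Of its counts, 88.3% lay in 4 elements that were each counted in 1 library: a locus on chromosome 18 with its alternate contig in KO replicate 3, and a locus on chromosome 21 with its alternate contig in KO replicate 1.

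MER4A1_ had 7.72, 13.1 and 0.60 counts in WT, against 132, 49.8 and 630 in KO, with a log2 change of 4.32 ± 1.37 (SE, adjusted p = 0.226). A single copy at chr7:30584288-30584961, in an exon of GARS1-DT, gave 554.5 counts in KO replicate 3 and 0 elsewhere. LTR9, the LTR of a HUERS-P provirus, had 19.5, 18.7 and 6.15 CPM in WT, against 210, 25.6 and 244 in KO, with a log2 change of 3.19 ± 1.04 (SE, adjusted p = 0.240). The 39-base fragment in DHRSX and its identical copy held 158 and 192 counts in KO replicates 1 and 3 and 0 in the other 4 libraries. LTR8A, an LTR of the same lineage, had 15.0, 33.3 and 12.3 CPM in WT, against 193, 52.5 and 56.1 in KO, with a log2 change of 2.16 ± 0.834 (SE, adjusted p = 0.319), and LTR1B had 7.50, 6.10 and 5.68 counts in WT, against 167, 13.0 and 17.9 in KO, with a log2 change of 2.40 ± 0.946 (SE, adjusted p = 0.321). In both, KO replicate 1 stood apart: without it the log2 changes were 1.34 and 0.60.

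The difference in MER41B rested on more than 1 KO library but on separate loci in each. This subfamily of LTRs falls outside the naming rule and was chosen after its values were seen. It had 61.6, 33.3 and 38.9 CPM in WT, against 170, 272 and 182 in KO, with a log2 change of 2.14 ± 0.866 (SE, adjusted p = 0.324). Of its counts, 67.6% lay in 6 elements with 90% or more of their own count from 1 library. With all such elements left out before summing, its log2 change was 0.12 and the groups overlapped.

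Leaving out such elements in every subfamily left fewer members whose groups did not overlap. Of the 97 member subfamilies then tested, 7 (7.22%) had every KO library above WT, against 10.4% of all, and 4 (4.12%) every KO library below, against 7.82% of all. Of the 16 members whose groups did not overlap, 12 were still tested and 6 of these still did not overlap.

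Of the 4 members with every KO library below WT, MER49 had the largest difference. This LTR had 698, 1000 and 92.2 CPM in WT, against 21.9, 20.2 and 29.3 in KO, with a log2 change of −4.49 ± 1.22 (SE, adjusted p = 0.152). Its WT counts came chiefly from chr2:241800217-241801520, in an exon of ENSG00000215023, and the same stretch on an alternate contig. Together these held 445 and 458 counts in WT replicates 1 and 2 and 0 in the other 4 libraries. The rest of MER49 had 20.10, 22.60 and 44.73 counts in WT, against 18.87, 14.91 and 24.31 in KO.

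MER41-int, the internal region of the MER41 provirus, was even within groups, at 101, 97.0 and 98.5 counts in WT, against 25.7, 42.4 and 45.2 in KO, with a log2 change of −1.91 ± 0.836 (SE, adjusted p = 0.352). Its highest copy, chr11:349106-352592, held 68, 2.5 and 83 counts in WT, against 3, 24.75 and 19 in KO. In WT replicate 2 another copy, chr17:22086147-22086564, held 81 counts and was at 0 elsewhere. With elements concentrated in 1 library left out before summing, the log2 change of MER41-int was −1.30 and its groups overlapped. MER4D0 had 137, 162 and 246 CPM in WT, against 64.7, 71.3 and 64.6 in KO, with a log2 change of −1.40 ± 0.831 (SE, adjusted p = 0.464), 90.9% of it at 1 locus, chr15:88937539-88944922. MER92C had 161, 152 and 133 CPM in WT and 132, 120 and 133 in KO. Of its counts, 99.0% lay at 1 locus of 9538 bp on chromosome 8. Its log2 change of −0.21 is small against its SE of 0.822, and its groups overlapped when libraries were scaled by their totals.

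**Figure D3:**
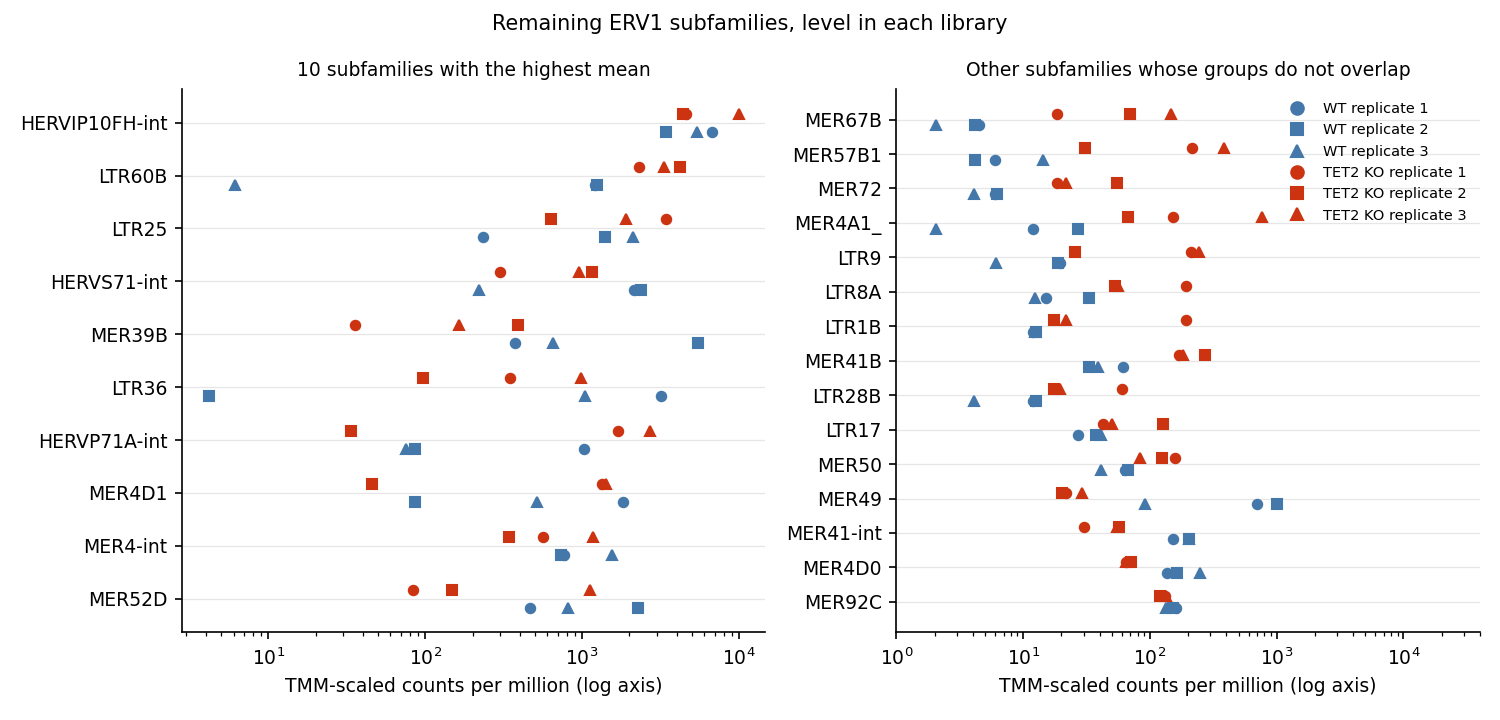
TMM-scaled CPM (log axis) in each library for the 10 member subfamilies with the highest mean, left, and for the other members whose groups do not overlap, right, with WT in blue, TET2 KO in red and a symbol per replicate. Within a group the libraries of LTR36 or MER4D1 differ more than 10-fold, and MER41-int and MER4D0 are among the most even.

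HERVIP10FH-int, the internal region of a HERV-IP provirus, was the highest member subfamily, with 17.2% of the members' counts. It had 6740, 3450 and 5420 CPM in WT and 4580, 4390 and 10000 in KO, which overlap (log2 change 0.28, SE 0.428, adjusted p = 0.782), and without KO replicate 3 the change was −0.20. The 3 identical copies of the fragment printed first, on chromosome 21 and on an unplaced contig, held 63.9% of it. The 10 members within 30 kb of the 5.8S genes RNA5-8SN1 to RNA5-8SN3, all HERVIP10FH-int or MER39B, held 14.7%, 20.7% and 11.1% of the members' counts in WT and 11%, 12.3% and 16.5% in KO.

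The 3 identical copies of the fragment printed first did not separate the groups. The copy at chr21:8229744-8229975 had 1668, 517 and 399 counts in WT, against 548, 522 and 2176 in KO. The copy at chr21:8456886-8457117 had 1112, 436 and 738 in WT and 968, 277 and 2211 in KO, and that at positions 128344 to 128575 of the contig GL000220v1 had 844, 431 and 429 in WT and 507, 283 and 1421 in KO. Their log2 changes in the test of single elements were 0.56, 0.83 and 0.59, with SEs of 0.883, 0.840 and 0.881, and all 3 were below 0 when libraries were scaled by their totals.

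The neighbouring fragment, which shares the consensus stretch but is its own sequence, did separate them. It had 365, 69.3 and 95.5 counts in WT, against 1303, 1512 and 1290 in KO, close to each other in all 3 KO libraries and below each of them in every WT library (log2 change 3.32, SE 0.916, edgeR adjusted p = 0.263 over all elements tested). It did not pass the test, and over the other settings its adjusted p ran from 7.52e-05 with the DESeq2 Wald test to 0.814. Leaving out any 1 library kept its log2 change between 2.99 and 4.29. A further fragment, chr21:8403045-8403281, had 160, 144 and 206 counts in WT, against 161, 365 and 241 in KO. In the edgeR test, scaled with TMM, the groups did not overlap, with a log2 change of 0.94 ± 1.14 (SE, adjusted p = 0.888). The groups overlapped both as deposited and per library total, where KO replicate 1 was below WT replicate 3.

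**Figure D4:**
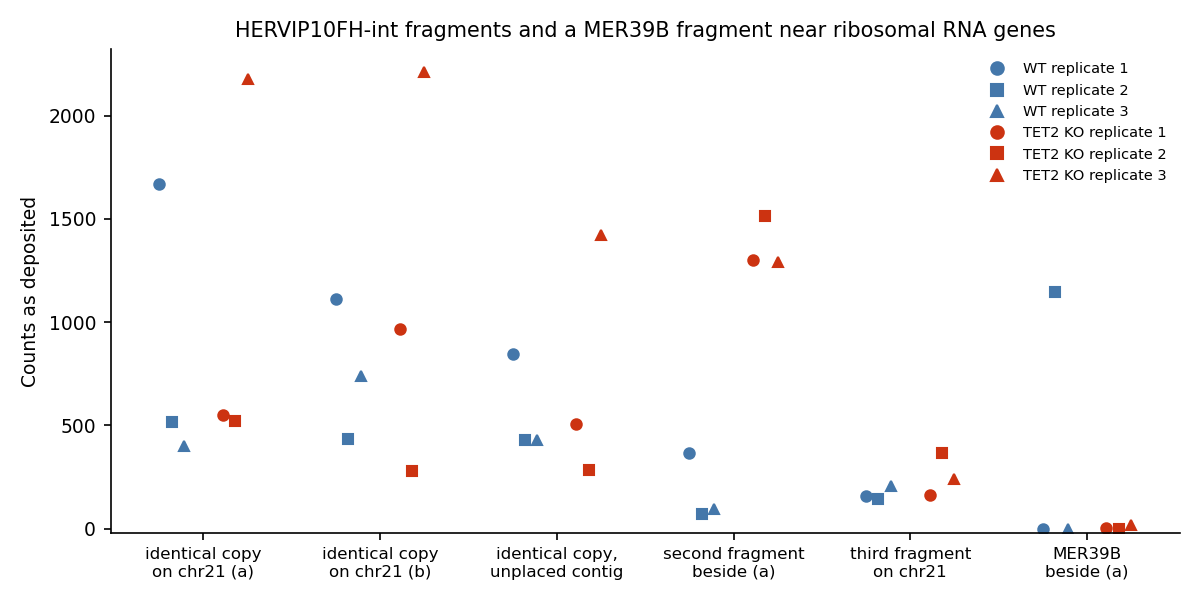
Counts as deposited (vertical axis) in each library for 5 HERVIP10FH-int fragments and a MER39B fragment near ribosomal RNA genes, where (a) marks chr21:8229744-8229975 and (b) chr21:8456886-8457117. The second fragment beside (a) has 1290 to 1512 counts in KO and at most 365 in WT, the identical copies overlap, and MER39B is high in WT replicate 2 only.

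MER39B, an LTR, was high in 1 library. It had 371, 5510 and 651 CPM in WT, against 35.8, 390 and 163 in KO, with a log2 change of −3.45 ± 1.28 (SE, adjusted p = 0.291). In WT replicate 2 the fragment printed above held 1146 counts, against 0.65 and 0.40 in the other WT libraries and 2.00, 0 and 18.4 in KO. Without WT replicate 2 the log2 change of the subfamily was −1.33.

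A duplicated stretch appears under 2 names. The HERV17-int element chr22:11048593-11049187 and the HERVIP10FH-int element chr21:10395822-10396418, of 595 and 597 bp, are 98.7% identical. The first had 233, 0 and 640 counts in WT, against 96.5, 161 and 790 in KO, and the second 233, 0 and 690 in WT and 103, 245 and 787 in KO. HERV17-int is the internal region of HERV-W. Both elements were at 0 in WT replicate 2 and highest in KO replicate 3, and whether reads were split between them was not tested.

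LTR60B was the next highest subfamily, and among the 10 highest it was the only one whose groups did not overlap. It had 1200, 1240 and 6.15 CPM in WT and 2290, 4180 and 3320 in KO, every KO library above WT (log2 change 1.99, SE 1.24, adjusted p = 0.495). Nearly all of it came from 5 copies of 757 to 761 bp that are at least 98.9% identical to the highest and lie 11426 to 11751 bp from the ends of chromosomes 13, 19, 2, 10 and 4. Together they held 527, 596 and 0 counts in WT, against 1968, 2962 and 2704 in KO, and all other copies held 273.50, 1.5 and 3.13 in WT and 15.97, 146.64 and 20.52 in KO.

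In deposited counts every KO library was above every WT library at each of the 5 copies. The copy on chromosome 13 had 96.3, 117 and 0 counts in WT, against 472, 534 and 937 in KO. The copy at chr19:58605430-58606190 had 130, 107 and 0 in WT and 459, 759 and 668 in KO, and that at chr2:242181072-242181832 had 125, 128 and 0 in WT and 600, 765 and 421 in KO. The copy on chromosome 4 had 85.5, 114 and 0 in WT and 278, 376 and 270 in KO. At the copy on chromosome 10, with 90.4, 131 and 0 in WT and 160, 527 and 408 in KO, the groups overlapped per library total, with WT replicate 2 at 263 and KO replicate 1 at 194 CPM of the total. WT replicate 3 held 0 counts at all 5, and without it the log2 change of LTR60B was 1.42. A related pair of copies, on chromosomes 1 and 22 and 86.0% and 85.9% identical to the first, followed another pattern, with 126 and 127 counts in WT replicate 1 and at most 33.6 in any other library.

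**Figure D5:**
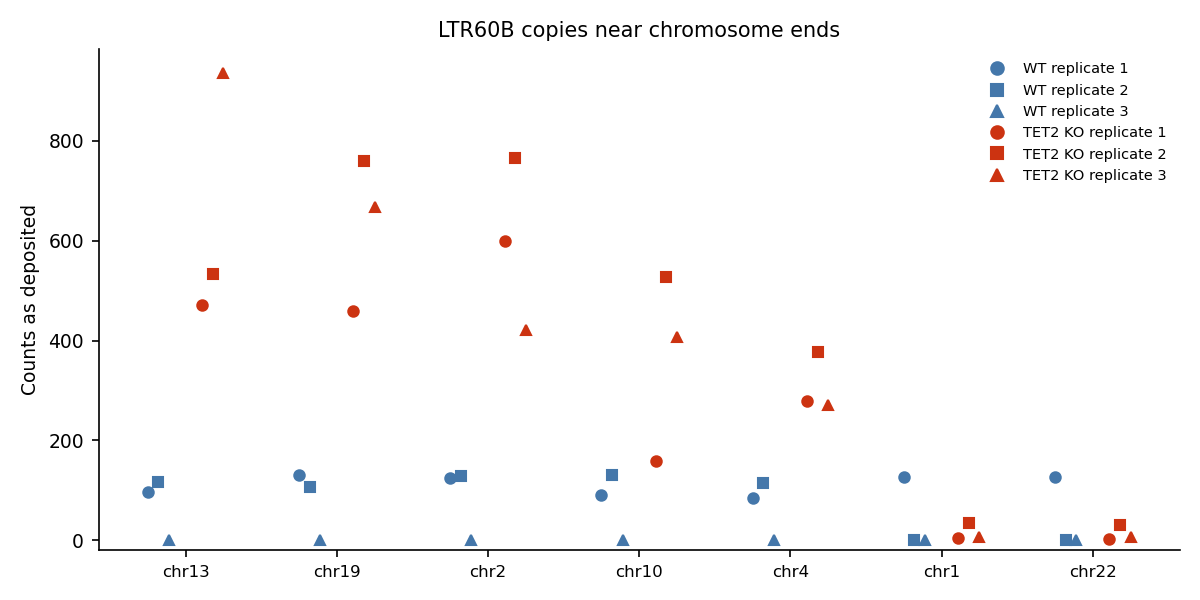
Counts as deposited (vertical axis) of the 7 highest LTR60B copies within 100 kb of a chromosome end in each library. In these counts, not scaled for depth, every KO library is above every WT library in the 5 near-identical copies on the left (on chromosome 10 the groups overlap per library total) and WT replicate 3 is at 0, while the copies on chromosomes 1 and 22 are highest in WT replicate 1.

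The groups overlapped in the remaining abundant subfamilies. LTR25 had 233, 1390 and 2120 CPM in WT, against 3420, 629 and 1900 in KO, a log2 change of 0.66 ± 0.895 (SE) that was 0.03 without KO replicate 1, 0.20 without WT replicate 1, 1.27 without WT replicate 3 and 1.08 without KO replicate 2. Its 3 highest copies, identical in sequence and all within the first 12 Mb of chromosome 21, were counted in every library, whereas other copies there had nearly all their counts in WT replicate 2 and KO replicate 1. LTR36 had 3170, 4.16 and 1040 CPM in WT, against 349, 96.8 and 990 in KO, a log2 change of −1.55 ± 1.58 (SE), 99.2% of its counts lying in 7 copies at least 98.2% identical to the highest. Without WT replicate 1 the change was −0.14.

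HERVS71-int, the internal region of a type C retrovirus-like provirus, had 2150, 2360 and 221 CPM in WT, against 298, 1160 and 961 in KO, a log2 change of −0.97 ± 0.956 (SE) that ran from −1.47 without WT replicate 3 to −0.46 without WT replicate 2. Different loci made up these values: a chromosome 19 locus and its alternate contig in WT replicate 1, a chromosome 6 locus and its alternate contigs in WT replicate 2, and another pair of copies in KO replicates 2 and 3. HERVP71A-int had 1030, 85.4 and 75.8 CPM in WT, against 1690, 33.6 and 2690 in KO, a log2 change of 1.87 ± 1.49 (SE) that ran from 1.10 without KO replicate 3 to 4.17 without WT replicate 1. Its highest copies were at chr1:247354310-247360114, with 572 and 270 counts in KO replicates 1 and 3, at chr1:247218632-247221832, with 658 and 91.3 in the same libraries, and at chr6:29962489-29969763 in the MHC region with its alternate contigs.

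MER4D1 had 1830, 85.4 and 512 CPM in WT, against 1340, 45.7 and 1420 in KO, a log2 change of 0.21 ± 1.32 (SE), partly from 201-bp fragments in introns of NPIPB genes on chromosome 16, and its sign turned without WT replicate 2 or 3 or KO replicate 1 or 3. MER4-int had 772, 735 and 1560 CPM in WT, against 566, 340 and 1180 in KO, a log2 change of −0.55 ± 0.824 (SE) that ran from −1.16 without KO replicate 3 to −0.11 without WT replicate 3. MER52D had 463, 2260 and 813 CPM in WT, against 83.1, 147 and 1130 in KO, a log2 change of −1.37 ± 1.16 (SE) that ran from −3.31 without KO replicate 3 to −0.50 without WT replicate 2. Of its counts, 96.7% lay in a single element, chr11:384365-386828, of 2464 bp and 66.0% GC, with 303, 1077 and 380 counts in WT, against 66.2, 80.3 and 896 in KO. Without WT replicate 2 the log2 change of this element was 0.26 in place of −0.73, so its sign rested on 1 library.

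By lineage, 24 lists of related subfamilies were read out, and 21 had a tested member. None had a called member. The median log2 change was above 0 in 11 and below 0 in 10. In HERV-W, the lineage of syncytin-1, both tested members were above 0, at 0.05 for HERV17-int and 1.00 for its LTR, LTR17. LTR17 had 27.0, 37.5 and 41.0 CPM in WT and 42.7, 126 and 50.0 in KO, groups that did not overlap here but did with the size factors of DESeq2 or with FordPrefect left out. HERV-I and HERV-IP held 19.5% of the members' counts with a median of 0.50 over 4 tested subfamilies, and MER4 9.72% with a median of −0.03 over 12. Among lists with at least 2 tested members, the lowest median was that of MER66 (2 tested, −1.22) and the highest that of HERV-F and HERV-FH (2 tested, 1.42). In the first, MER66B drew 82.4% of its counts from WT replicate 1. In the second, LTR19A drew 76.9% from KO replicate 1.

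Of 3127 single elements tested with edgeR, 3 had an adjusted p under 0.05 (0.0959%), all of them FordPrefect. Of the 86 members tested, from 37 subfamilies, 0 did. At an unadjusted p under 0.05 there were 3 members (3.49%) against 7.48% of all elements, and the DESeq2 Wald test called 3 members (3.49%) against 5.60% of all. KO lay above WT in all libraries for 13 members (15.1%, against 8.76%) and below for 4 (4.65%, against 6.46%), together 19.8% of the members and 15.2% of all. With libraries scaled by their totals the members were nearly even, 8 above (9.30%, against 4.51% of all) and 7 below (8.14%, against 18.8%). The counts above WT with TMM include all 5 LTR60B copies, which are not independent. The median log2 change was 0.53 for the members and 0.12 for all elements, and with libraries scaled by their totals it was −0.39 and −0.77.

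The 3 elements with an unadjusted p under 0.05 were the HERVIP10FH-int neighbour fragment above and a further pair, which lie outside the naming rule and were chosen after their values were seen. An MER4-int copy of 11983 bp at chr10:90080251-90092233, in introns of LINC01374 and ENSG00000287150, had 0, 0 and 0.4 counts in WT, against 13.9, 57.2 and 182 in KO (adjusted p = 0.202). KO replicate 3 held 71.8% of these, and the copy met the filter on low counts through the KO libraries alone. The HUERS-P3-int copy at chr11:74869998-74883806, which overlaps an exon of the pseudogene RPL31P46, had 145, 9.88 and 33.6 counts in WT, against 2.67, 3.98 and 5.57 in KO, with a log2 change of −3.05 ± 1.00 (SE, adjusted p = 0.430). WT replicate 1 held 72.2% of these, and this copy met the filter through the WT libraries alone.

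Members that overlap the genes of ERV1 loci with known proteins held few or no counts. The 3 members at ERVW-1 (syncytin-1), the 2 at ERVMER34-1 and the 3 at ERVV-1 held 0 counts in all 6 libraries, which allows up to 3 counts in each, or 3.63 to 6.02 CPM, counting error only. At ERVFRD-1 (syncytin-2) the 2 members are LTRs, MER50 and MER57E1, with no internal region among them, so its coding region was not read. They held 1 count in WT replicate 2 and 4.4 in KO replicate 2. ERVV-2 held 0.5 in KO replicate 1, and ERVH48-1, whose product binds the syncytin-1 receptor, at most 6 in a library. ERV3-1, a locus with a long envelope reading frame, had 33.15, 3 and 8.25 counts in WT, against 16.43, 11.5 and 24.7 in KO, and the groups overlapped. These counts pool HERV3-int with LTRs (LTR4, MER57E3 and MER92B).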

How the data were processed

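Per the labels and the study's methods, the authors used Trimmomatic 0.39 for trimming, HISAT2 2.1.0 for alignment to hg38, Picard for removal of duplicates and featureCounts for caRNA counts, here over repeat copies. The deposited values are estimated counts per element and library: 26.5% of the non-zero values were whole numbers (within 0.005) and the smallest was 0.03. The counting options and any use of strand are not given in the sources used here, though the library kit is stranded. Only the human table was used.

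The members and lists were chosen with earlier results of these data known. Counts were summed per subfamily over the DNA, LINE, LTR and SINE classes and rounded. KO was compared with WT in the 6 libraries with the edgeR 4.0.16 quasi-likelihood test (R 4.3.3, filterByExpr, TMM, prior count 2, two-sided), with Benjamini-Hochberg adjustment over all subfamilies or all elements and a threshold of 0.05. SE is the absolute log2 change over the square root of F. Subfamilies were named if called, if among the 10 highest, or if their groups did not overlap with a mean of at least 20 counts (up to 6 per direction, by p). Elements were named if called, among the 5 highest, or at an unadjusted p under 0.05 without overlap and with at most 60% of counts in 1 library (up to 4 per direction). Shares have no test. Sequences came from hg38 and gene context from GENCODE 44, which is not the authors' release. Identity is the share of the shorter sequence left unedited when it is aligned within the longer one.

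Simulated data had 200 changed items and took the spread that edgeR fitted to each item of the real table, with the dispersion capped at 4. Counts were drawn independently per library, so loci counted in 1 library were not modelled as such. On these data edgeR recovered 6% of the changed subfamilies (573 in all) at a log2 of 2 and 73.5% at 4 (4 false calls), and 0% of the changed elements (3127 in all) at both sizes. Alternatives were DESeq2 1.42.0 (size factors and Wald test), library totals, looser filters, removal of FordPrefect, of the 10 highest elements of the table or of elements with at least 10 counts and at least 90% of them in 1 library, a replicate block, and leaving out each library. Python 3.11.15, pandas 2.3.3, NumPy 2.4.6, pysam 0.24.0 and matplotlib 3.10.9 were used.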

Additional observations from a re-analysis of the deposited data

How the results depend on the processing

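In every edgeR setting 0 member subfamilies and 0 member elements were called, also with each library left out (0 to 0 for both), while the DESeq2 Wald test called 14 and 3. The simulation recovered few changes of a log2 of 2 at this spread, so a lack of calls does not show that values did not differ. The number of member subfamilies whose groups did not overlap, 16, was 25 without the filter on low counts, where 232 were tested, and 31 to 38 with a library left out, where a group has fewer libraries to overlap. The log2 ratio of the members' share of all counts, 0.16, was 0.41 without FordPrefect and 0.41 without the 10 highest elements of the table, and −0.01 to 0.27 with a library left out. For the internal regions it was −0.15 to 0.11 with a library left out.

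With the replicate number as a block 0 member subfamilies were called and 7 had an unadjusted p under 0.05, in place of 19. The sources used here do not say whether the numbers mark a shared batch. The deviations of same-numbered WT and KO libraries correlated at −0.0524, 0.0422 and −0.092 over 573 subfamilies. With so few libraries and so large a spread this cannot exclude a shared preparation. The main test did not use the block.

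Of 333 values of named subfamilies and elements under the alternatives, 313 kept their direction and their side of the threshold, 8 passed it, all with the DESeq2 Wald test, and 12 changed sign. With a library left out, HERVIP10FH-int ran from −0.20 to 0.53 (below 0 without KO replicate 3), MER4D1 from −0.26 to 1.63 (−0.26 and −0.02 without WT replicates 2 and 3, −0.14 and −0.22 without KO replicates 1 and 3), and the MER52D element from −2.61 to 0.26 (above 0 without WT replicate 2). Of the identical HERVIP10FH-int copies, chr21:8229744-8229975 ran from −0.17 to 1.34 and that on GL000220v1 from −0.07 to 0.97, both below 0 without KO replicate 3. With library totals these 2 were at −0.35 and −0.32 and chr21:8456886-8457117 at −0.09, and with the block LTR36 was at 0.00. The cause was not tested. Relative to TMM, library totals moved the median over all elements tested from 0.12 to −0.77 and over all subfamilies from 0.03 to 0.13.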
